A study of Homo sapiens with 2 samples.

Results

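The genes described here are 10 transcription factor genes of early neural and axial development: POU3F2, POU3F1 and POU3F3, the COUP factors NR2F1 and NR2F2, the TALE homeobox genes MEIS1 and MEIS2, and DACH1, ONECUT2 and NKX1-2. They are 10 of the 33592 gene symbols listed in the data and were taken by symbol. They had been proposed because most of them were lower without ZNF263 in these same data, so their levels in the 2 libraries are a description and carry no test. RNA was counted in single cells of the human embryonic stem cell line H1, in 1 library of ZNF263 homozygous KO cells, in which ZNF263, a zinc finger transcription factor, had been deleted with Cas9, and in 1 library of WT cells. Both were routinely cultured, with no differentiation treatment in the labels, and captured in microwells that pair a cell with a barcoded bead. The labels do not say how many clones the KO cells came from or which part of ZNF263 was removed. Each genotype is 1 library, so no difference below has a replicate check, and the bracketed 95% intervals cover counting error only.

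POU factors bind DNA through a paired POU-specific domain and homeodomain, and the POU3F (Brn and Oct6) branch is used in neural progenitors and in neuronal and glial maturation. NR2F1 and NR2F2 are orphan nuclear receptors that pattern the forebrain and other tissues, and MEIS proteins are homeodomain partners of PBX and HOX proteins. Undifferentiated stem cells rely on another POU factor, POU5F1, and are known to carry little RNA of most genes in this set.

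The DNA just upstream of 4 of these genes is shown because ZNF263 is catalogued as binding G-rich DNA around the letters GGAGGA. Of these, POU3F2, DACH1 and ONECUT2 were lower in KO and POU3F1 was not, and the 4 do not stand for the whole set. The windows end just before the RefSeq transcription start and were read from RefSeq promoter sequence on GRCh38.p14, 5′ to 3′ on the strand of the gene, with GGAGGA or its reverse complement TCCTCC in capitals. They lie at chr6:98834324-98834573 on the plus strand for POU3F2, chr13:71867205-71867454 on the minus strand for DACH1, chr18:57435124-57435373 on the plus strand for ONECUT2 and chr1:38046795-38047043 on the minus strand for POU3F1.
POU3F2: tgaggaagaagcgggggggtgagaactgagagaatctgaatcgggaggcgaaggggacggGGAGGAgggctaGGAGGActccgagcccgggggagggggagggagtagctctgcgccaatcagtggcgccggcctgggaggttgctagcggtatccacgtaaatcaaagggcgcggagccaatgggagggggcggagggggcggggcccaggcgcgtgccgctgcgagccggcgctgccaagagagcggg
DACH1: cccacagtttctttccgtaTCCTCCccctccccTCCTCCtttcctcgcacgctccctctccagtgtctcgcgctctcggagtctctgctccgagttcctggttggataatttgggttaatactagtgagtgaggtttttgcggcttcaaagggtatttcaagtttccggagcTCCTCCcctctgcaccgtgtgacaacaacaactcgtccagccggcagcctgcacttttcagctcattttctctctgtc
ONECUT2: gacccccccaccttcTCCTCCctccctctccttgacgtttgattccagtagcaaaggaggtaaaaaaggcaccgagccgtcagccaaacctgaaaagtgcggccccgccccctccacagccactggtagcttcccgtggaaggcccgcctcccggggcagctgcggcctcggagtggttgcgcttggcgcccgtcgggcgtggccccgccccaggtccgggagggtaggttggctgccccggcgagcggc
POU3F1: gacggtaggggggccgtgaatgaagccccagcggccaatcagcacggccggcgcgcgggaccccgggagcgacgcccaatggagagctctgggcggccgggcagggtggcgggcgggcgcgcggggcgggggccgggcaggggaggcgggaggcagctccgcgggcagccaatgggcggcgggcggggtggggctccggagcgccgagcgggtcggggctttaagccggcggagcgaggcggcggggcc
The POU3F2 window held 2 matches, DACH1 held 3, ONECUT2 held 1 and POU3F1 held 0. Over all windows of the set, 7 of 13 windows from 6 of the 10 genes held the letters on either strand within 250 upstream bases, against 31.8% of 35116 RefSeq windows. POU3F3, NR2F2 and MEIS2 also held a match. Some genes have more than 1 window, and some windows lie in exons of other GENCODE transcripts. Both NR2F2 windows held a match, and all 250 bases of each lie in such exons. Of the MEIS2 window with a match 46 bases do, and of the MEIS2 window without one all 250 do. NR2F1, MEIS1 and NKX1-2, which were also lower in KO and are not printed, held none, like POU3F1. A link between matches and levels was not tested. The octamer ATGCAAAT of POU factors, the MEIS letters TGACAG and the nuclear receptor half-site AGGTCA were in 0 of the 13 windows, against 1.63%, 13.0% and 12.1% of all windows, so no match overlapped another motif. The POU3F1 window was the most GC-rich of the set, at 80.8%, against a median of 58% over all windows. These letters were chosen after the levels were known, and a match describes the sequence, not a binding site.

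Barcodes were read in 2 depth ranges. Kept cells held 1000 or more unique molecular identifiers (UMIs), 500 or more genes and no more than 20% mitochondrially encoded UMIs: 2286 KO cells with 3567881 UMIs and 2935 WT cells with 4650391 UMIs. Shallow barcodes held at least 250 and fewer than 1000 UMIs: 50551 in KO with 21086560 UMIs and 56837 in WT with 23784553 UMIs. Levels are given as CPM, the UMIs of a gene per 1000000 UMIs of the barcodes in a range. ZNF263 itself was at 7.57 CPM in KO (27 UMIs) and 17.8 CPM in WT (83 UMIs) in kept cells, and at 8.54 CPM in KO and 15.6 CPM in WT in shallow barcodes. In barcodes of 10 to under 100 UMIs, too few to be taken as cells, it was at 11.6 CPM in KO and 12.7 CPM in WT. All 14 pluripotency markers listed were at 18.5 CPM or more in KO and at 12.7 CPM or more in WT kept cells. Of the kept barcodes 20 had the same sequence in both libraries, and of the shallow barcodes 4665 did, or 9.23% of KO and 8.21% of WT.

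POU3F2 (Brn2), a neural POU factor of neuronal progenitors on chromosome 6 (98834592 to 98839470, plus strand, 1 exon), was among the genes with the lowest KO levels relative to WT. It had 13 UMIs in KO kept cells (3.64 CPM, 1.94 to 6.23) and 197 in WT kept cells (42.4 CPM, 36.7 to 48.7), 11.6-fold lower in KO (6.64 to 22.2). Shallow barcodes gave 79 UMIs in KO (3.75 CPM) and 980 in WT (41.2 CPM), 10.998-fold lower (8.74 to 14.0). In kept cells 11 of 10129 genes with a mean of 5 CPM or more had a lower ratio of KO over WT.

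POU3F3 (Brn1), which is known to act beside POU3F2 in the mouse cortex, was a low-count gene on chromosome 2 (104855511 to 104858574, plus strand, 1 exon). It had 2 UMIs in KO kept cells and 20 in WT kept cells, 7.67-fold lower in KO (1.86 to 67.7), and 10 UMIs in KO and 161 in WT shallow barcodes, 14.3-fold lower (7.56 to 30.3). Both KO UMIs of the kept cells came from 1 cell of 3170 UMIs, which also held 3 of the 13 POU3F2 UMIs, 1 NR2F1 UMI and 1 NR2F2 UMI. That was the KO cell with the most UMIs of the set, 7 in all. Without it no KO kept cell held POU3F3.

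POU3F1 (Oct6), a POU factor of the epiblast and of Schwann cells in the mouse, went the other way. This gene on chromosome 1 (38044611 to 38046794, minus strand, 1 exon) had 58 UMIs in KO kept cells (16.3 CPM, 12.3 to 21.0) and 48 in WT kept cells (10.3 CPM, 7.61 to 13.7), 1.57-fold higher in KO (1.06 to 2.36). In shallow barcodes it had 346 UMIs in KO (16.4 CPM) and 302 in WT (12.7 CPM), 1.29-fold higher (1.104 to 1.51). The makeup of the POU3F UMIs therefore differed between the libraries. POU3F1 gave 79.5% of all POU3F1, POU3F2 and POU3F3 UMIs in KO kept cells (58 of 73, Clopper-Pearson interval 68.4% to 88.0%), against 18.1% in WT kept cells (48 of 265, 13.7% to 23.3%). In shallow barcodes it gave 79.5% in KO (75.4% to 83.2%) and 20.9% in WT (18.9% to 23.1%). Counts are not scaled to gene length, and the 3 genes share a conserved domain, so reads that fit more than 1 of them are uncertain.

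Both COUP factors were lower in KO. NR2F1, which sets area identity in the mouse cortex, lies on chromosome 5 (93583224 to 93594615, plus strand). It had 24 UMIs in KO kept cells (6.73 CPM, 4.31 to 10.0) and 194 in WT kept cells (41.7 CPM, 36.1 to 48.0), 6.20-fold lower in KO (4.05 to 9.91). Shallow barcodes had 197 UMIs in KO (9.34 CPM) and 1226 in WT (51.5 CPM), 5.52-fold lower (4.74 to 6.45). NR2F2, also a regulator of vein and mesenchyme identity in the mouse, lies on chromosome 15 (96325938 to 96340263, plus strand). It had 14 UMIs in KO kept cells (3.92 CPM) and 100 in WT kept cells (21.5 CPM), 5.48-fold lower in KO (3.12 to 10.4), and 144 UMIs in KO and 646 in WT shallow barcodes, 3.98-fold lower (3.32 to 4.80).

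Both MEIS genes were lower in KO. MEIS1 on chromosome 2 (66433452 to 66573869, plus strand), a HOX cofactor of blood and neural cells, had 4 UMIs in KO kept cells (1.12 CPM) and 32 in WT kept cells (6.88 CPM), 6.14-fold lower in KO (2.18 to 23.9), and 35 UMIs in KO and 209 in WT shallow barcodes, 5.29-fold lower (3.69 to 7.81). MEIS2 on chromosome 15 (36889204 to 37101299, minus strand), used in forebrain and neural crest derivatives, had 14 UMIs in KO kept cells (3.92 CPM) and 99 in WT kept cells (21.3 CPM), 5.43-fold lower (3.09 to 10.3). Its shallow barcodes held 84 UMIs in KO and 604 in WT, 6.37-fold lower (5.07 to 8.11).

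The remaining 3 genes belong to other families. DACH1, a transcriptional cofactor that works with EYA proteins in eye and limb, lies on chromosome 13 (71437966 to 71867192, minus strand). It had 12 UMIs in KO kept cells (3.36 CPM) and 88 in WT kept cells (18.9 CPM), 5.63-fold lower in KO (3.06 to 11.3), and 123 UMIs in KO and 570 in WT shallow barcodes, 4.11-fold lower (3.38 to 5.03). ONECUT2, a CUT homeodomain factor of liver, retina and neurons, lies on chromosome 18 (57435685 to 57491297, plus strand). It had 2 UMIs in KO kept cells (0.561 CPM) and 44 in WT kept cells (9.46 CPM), 16.9-fold lower with a wide interval (4.40 to 144). In shallow barcodes, with 36 UMIs in KO and 291 in WT, the difference was 7.17-fold (5.06 to 10.4). NKX1-2, a homeobox gene known from the caudal epiblast of mouse and chick where spinal cord precursors reside, lies on chromosome 10 (124445239 to 124450184, minus strand). It had 45 UMIs in KO kept cells (12.6 CPM, 9.20 to 16.9) and 207 in WT kept cells (44.5 CPM, 38.7 to 51.0), 3.53-fold lower in KO (2.55 to 4.99), and 229 UMIs in KO and 898 in WT shallow barcodes, 3.48-fold lower (3.004 to 4.04). Its fold was the smallest among the 9 lower genes in both ranges, though its interval overlapped that of the next gene, MEIS2 in kept cells and NR2F2 in shallow barcodes.

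**Figure D1:**
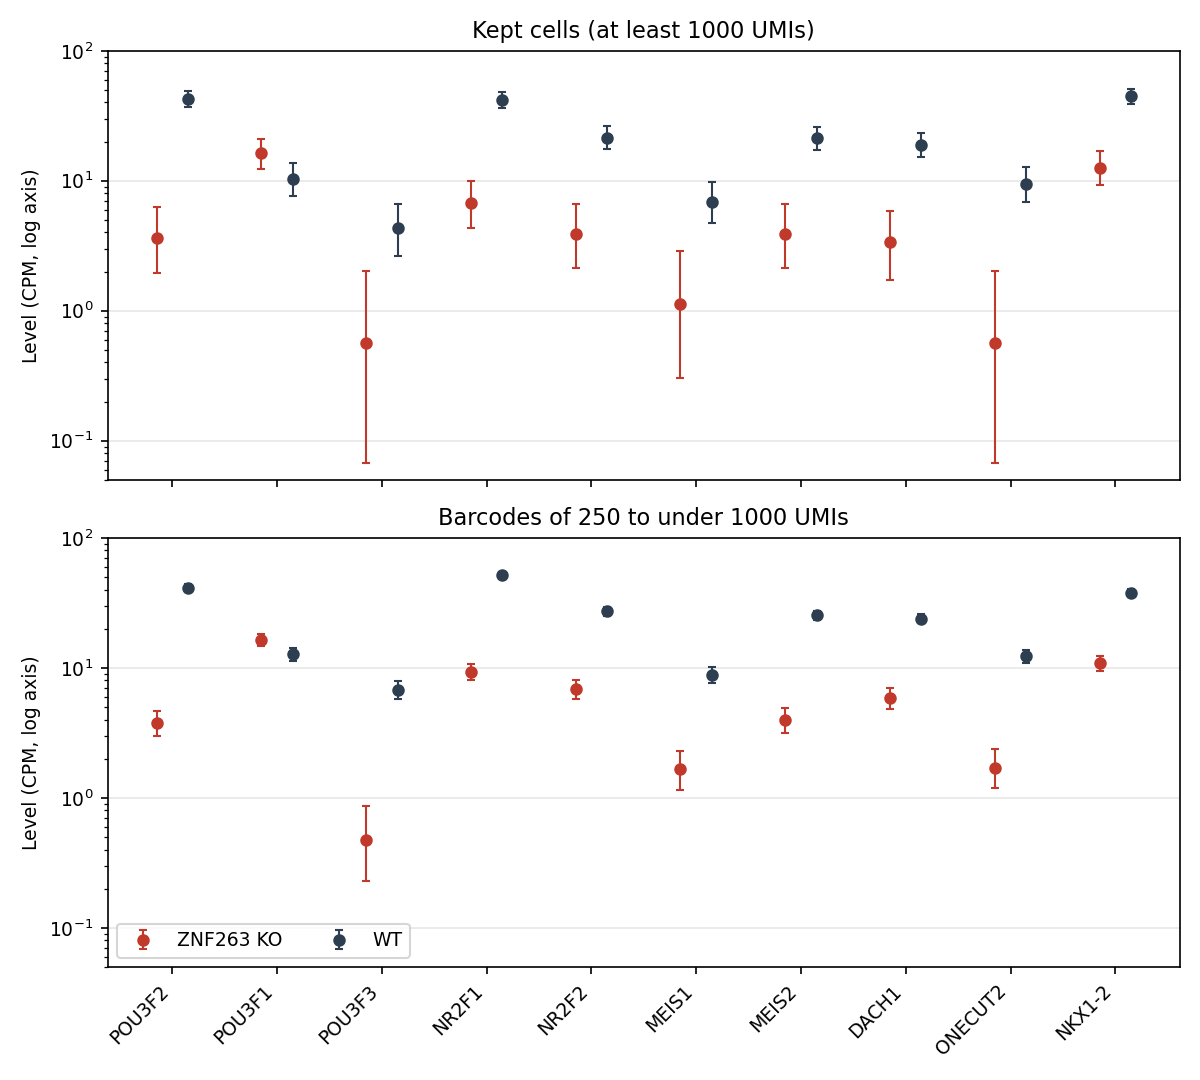
Levels of the 10 genes in CPM on a log axis, ZNF263 KO in red and WT in dark blue, in kept cells (top) and in barcodes of 250 to under 1000 UMIs (bottom). Bars are exact Poisson 95% intervals of 1 library each. POU3F1 stands above WT in KO and the other 9 genes stand below it, POU3F2 at 3.64 CPM in KO and 42.4 CPM in WT in kept cells.

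In all, 9 of the 10 genes were at least 1.5-fold lower in KO in kept cells, where 13% of 10129 genes with a mean of 5 CPM or more were that much lower. The same 9 were so in shallow barcodes, where 10.1% of 10148 genes were. Since the set was chosen for this difference, nothing is read from those counts. POU3F1 alone was at least 1.5-fold higher in kept cells, against 3.94% of genes, and fell short of that fold in shallow barcodes, where 2.79% of genes passed it. Across the 10 genes the median log2 ratio (KO over WT) was -2.55 in kept cells and -2.43 in shallow barcodes, beside -0.14 and -0.15 over all genes. POU3F3 and MEIS1 were under a mean of 5 CPM in kept cells, and POU3F3 in shallow barcodes. Summed over the 9 lower genes, the level was 36.4 CPM in KO kept cells (130 UMIs) and 211 CPM in WT kept cells (981 UMIs), 5.79-fold lower in KO (4.82 to 7.01). In shallow barcodes it was 44.4 CPM in KO (937 UMIs) and 235 CPM in WT (5585 UMIs), 5.28-fold lower (4.93 to 5.67). In a sum over barcodes, fewer cells with the RNA and less RNA in each cannot be told apart. Leaving out the barcodes found in both libraries left the log2 ratio of the 10-gene sum at -2.07 in kept cells and at -2.02 in shallow barcodes, the values with them.

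The ratios were close across ranges of depth. For the 9-gene sum they were 5.55-fold lower in KO in barcodes of 10 to under 100 UMIs (724 UMIs in KO and 4333 in WT), 5.33-fold in barcodes of 100 to under 250 UMIs, 5.51-fold in kept cells under 2000 UMIs and 6.87-fold in kept cells of 2000 UMIs or more (interval 4.64 to 10.54). These ranges lie in the same 2 libraries and repeat the comparison without being replicates of it. POU3F2 was 12.5-fold lower in KO at 10 to under 100 UMIs (59 UMIs in KO and 794 in WT) and 6.48-fold lower at 2000 UMIs or more (5 in KO and 44 in WT, interval 2.58 to 21.0). POU3F1 was higher in KO in every range, by 1.40-fold at 10 to under 100 UMIs and by 2.71-fold at 2000 UMIs or more (20 UMIs in KO and 10 in WT, interval 1.21 to 6.49). In kept cells under 2000 UMIs its interval held no change (38 UMIs in each library, 0.795 to 2.06). POU3F3 had 0 UMIs in KO and 20 in WT under 2000 UMIs, and the 2 KO UMIs named above against 0 in WT from 2000 UMIs up.

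**Figure D2:**
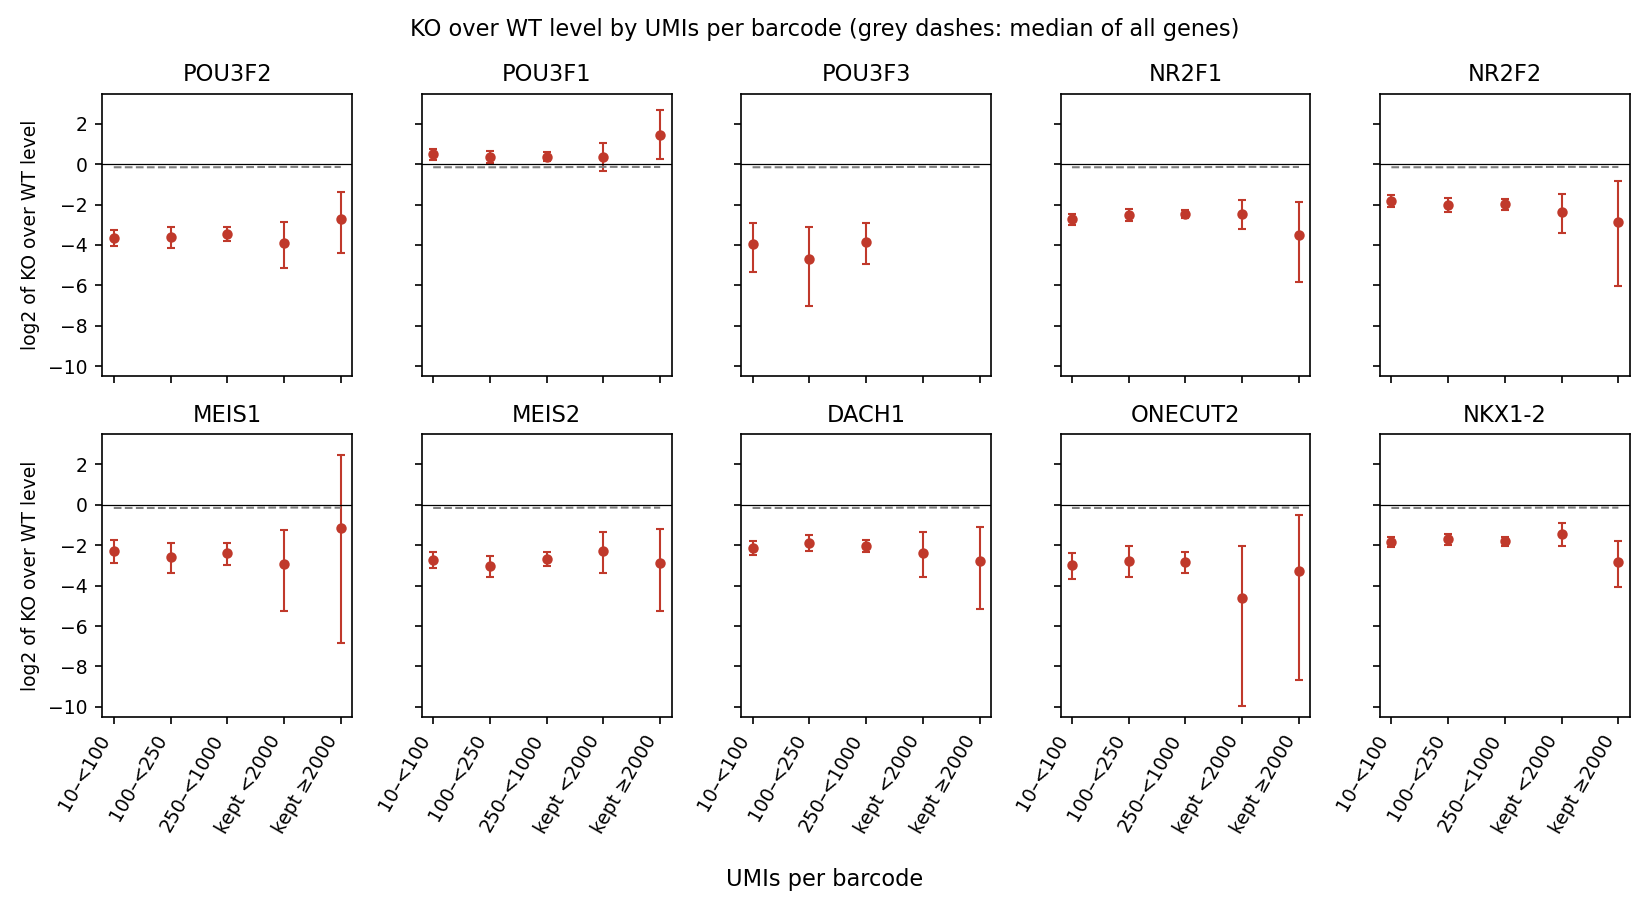
Log2 of the KO over WT level of each gene (points, exact conditional 95% intervals) in 5 ranges of UMIs per barcode, with the median of all genes as grey dashes. POU3F3 has no point in kept cells, where 1 library is at 0 in each range. All points of POU3F1 lie above 0 and all points of the other genes below it.

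Mitochondrial share, a sign of cell quality, had a median of 5.10% in KO and 4.36% in WT kept cells. Within bins of that share the 9-gene sum was 4.20-fold lower in KO under 2%, 5.74-fold lower at 2 to under 5%, 6.24-fold lower at 5 to under 10% and 5.85-fold lower at 10 to 20%. POU3F1 did not keep its direction across these bins. It was higher in KO under 2% (13 UMIs in KO and 10 in WT, 2.06-fold, 0.833 to 5.24) and at 5 to under 10% (36 UMIs in KO and 18 in WT, 2.19-fold, 1.21 to 4.10), but lower in KO at 2 to under 5% (8 UMIs in KO and 19 in WT, 1.39-fold lower, 0.579 to 3.66), and it had 1 UMI in each library at 10 to 20%. The level of the 9-gene sum itself varied with the share in both libraries. Under 2% it was 24.7 CPM in KO and 104 CPM in WT, and at 2 to under 5% it was 47.7 CPM in KO and 274 CPM in WT.

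The genes were rare per barcode. After thinning each kept cell to 1000 UMIs, 5.34% of KO cells (122 of 2286, Clopper-Pearson interval 4.45% to 6.34%) and 18.3% of WT cells (538 of 2935, 16.9% to 19.8%) held a UMI of any of the 10, against 7.48% of KO and 25.01% of WT cells without thinning. Shallow barcodes thinned to 250 UMIs gave 1.51% in KO and 5.96% in WT. The RNA of barcodes of 10 to under 100 UMIs would by itself give 5.64% in KO and 21.7% in WT at 1000 UMIs, and 1.44% in KO and 5.94% in WT at 250 UMIs. The intervals of the observed shares held those values, except in WT kept cells, where the share lay below its value. The shares are therefore not read as shares of expressing cells. What part of them is RNA from outside cells was not tested. For single genes of kept cells the shares were 0.394% in KO and 3.92% in WT for POU3F2, 0.612% in KO and 3.99% in WT for NR2F1, 1.44% in KO and 3.88% in WT for NKX1-2, and 1.66% in KO and 1.02% in WT for POU3F1. POU3F3 was in 0 of the 2286 thinned KO cells, which by the limit of 3 counts allows a share of cells with a UMI of up to 0.131%, and in 0.613% of WT cells. Median depth was near equal, at 1289.5 UMIs in KO and 1328 UMIs in WT.

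Most WT cells with a gene of the set held 1 UMI of it, yet some genes were found together. WT kept cells with POU3F2 held the other 9 genes at 377 CPM (101 UMIs in 162 cells), against 167 CPM in WT cells without it, 2.26-fold more (1.82 to 2.79). The same ratio was 2.55 for ONECUT2 (1.78 to 3.54), 2.61 for POU3F3 (1.42 to 4.40), 2.07 for DACH1, 2.06 for NR2F1 and 2.05 for NR2F2. It was 1.52 for MEIS1 (0.846 to 2.52) and 1.39 for MEIS2 (1.01 to 1.87). It was 0.815 for NKX1-2 (0.607 to 1.07) and 1.28 for POU3F1 (0.805 to 1.93), and these intervals, like that of MEIS1, hold no difference. In shallow WT barcodes the ratios were 1.27 for POU3F2 (1.05 to 1.52), 1.61 for ONECUT2 (1.19 to 2.14), 1.29 for NR2F1 (1.09 to 1.53), 0.893 for NKX1-2 (0.707 to 1.11) and 0.883 for POU3F1 (0.599 to 1.25). WT cells with a gene were mostly deeper, with a median of 1403 UMIs for POU3F2 against 1323 UMIs in cells without it. The 10 ratios are not independent, since 2 genes found in 1 cell enter the ratio of each. KO kept cells gave such ratios on few UMIs of the other 9 genes. They were 5.75 for POU3F2 (5 UMIs, 1.84 to 13.7), 3.95 for NR2F1 (6 UMIs, 1.43 to 8.79) and 7.81 for NR2F2 (8 UMIs, 3.32 to 15.7). Most of these UMIs came from 1 cell, the KO cell of 3170 UMIs named above. It held 3 POU3F2, 2 POU3F3, 1 NR2F1 and 1 NR2F2 UMIs and so enters each of these ratios. The intervals take UMIs as independent, so co-occurrence across KO cells is not read from them. The KO ratio of POU3F1 was 0.499 (0.0598 to 1.84), and KO cells with MEIS1 or DACH1 held 0 UMIs of the others.

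Counted as cells, co-occurrence was small and depended on how depth was handled. At 1000 UMIs per cell, 4 KO kept cells held 2 or more of the genes where independence at the observed shares would give 2.74. That is a ratio of 1.46 in KO, with a wide interval (0.398 to 3.74). In WT 76 kept cells did where 51.5 were expected, a ratio of 1.47 (1.16 to 1.85). That WT ratio is of 1 random thinning draw, at the upper end of the range over 3 draws, and its interval leaves out the spread between draws. With all UMIs and an expectation computed at the depth of each cell, 7 KO cells were observed and 7.07 expected, and 145 WT cells were observed and 137 expected, a ratio of 1.06 in WT (0.895 to 1.25). Beside that, the 9-gene level in WT was 177 CPM in cells of 2000 UMIs or more and 227 CPM in shallower kept cells, and the part of this in the expectation was not tested. In shallow WT barcodes thinned to 250 UMIs the ratio was 1.22 (110 observed and 90.4 expected, interval 0.9999 to 1.47). With all UMIs it was 1.1005 (0.981 to 1.23), and both intervals hold 1. Among the 45 pairs with all UMIs, POU3F2 with NR2F2 was in 14 WT kept cells where 7.58 were expected, NR2F1 with ONECUT2 in 9 where 3.34 were expected, and DACH1 with ONECUT2 in 6 where 1.56 were expected. NR2F1 with NKX1-2 was in 7 WT kept cells where 15.03 were expected (ratio 0.466, 0.187 to 0.959). In all 6 pairs had an interval above 1 and 1 pair below it in WT kept cells, and in shallow WT barcodes 0 pairs were above and 2 below, POU3F2 with NKX1-2 and POU3F1 with NR2F1.

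Cells rich in CRABP1, which encodes a retinoic acid binding protein, held more RNA of several of these genes. The 61 WT kept cells with 5 or more CRABP1 UMIs, 2.08% of the WT cells, held 10.0% of the UMIs of the set. The 9-gene level was 916 CPM in them and 183 CPM in the 1648 WT cells with no CRABP1 UMI. ONECUT2 had the highest ratio, at 189 CPM in them and 5.07 CPM in all other WT kept cells, a ratio of 37.2 (19.6 to 70.4), with 47.7% of its UMIs there. NR2F1 was at 252 CPM in them and 36.6 CPM in the others (ratio 6.88), DACH1 at 98.8 CPM and 17.0 CPM (ratio 5.83) and POU3F2 at 180 CPM and 39.0 CPM (ratio 4.61). MEIS1 had a ratio of 5.83 on 4 UMIs (1.48 to 16.7). NKX1-2 was at 44.9 CPM in them and 44.5 CPM in the others, and its ratio interval, 0.324 to 2.39, held no difference. The intervals of POU3F1 (ratio 0.868), POU3F3 (4.53), NR2F2 (2.15) and MEIS2 (2.63) held no difference either. ONECUT2 had the highest ratio in shallow WT barcodes too, at 223 CPM in 88 such barcodes and 11.7 CPM in the others (ratio 19.0, 10.0 to 33.1). There the ratio was 4.71 for NR2F1 (2.56 to 7.93) and 4.20 for POU3F2 (2.01 to 7.76). It was 7.95 for MEIS1 (4 UMIs, 2.15 to 20.7) and 7.73 for POU3F3 (3 UMIs, 1.58 to 23.0), whose interval in kept cells held no difference. That of DACH1 was 2.16 (0.443 to 6.33), an interval that holds no difference. In KO 4 kept cells and 1 shallow barcode reached 5 CRABP1 UMIs, too few for a comparison. Without all such cells the 9 genes were still at least 1.5-fold lower in KO in both ranges, and in cells with no CRABP1 UMI the 9-gene level was 35.3 CPM in KO and 183 CPM in WT. CRABP1 itself was at 270 CPM in KO and 512 CPM in WT kept cells.

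**Figure D3:**
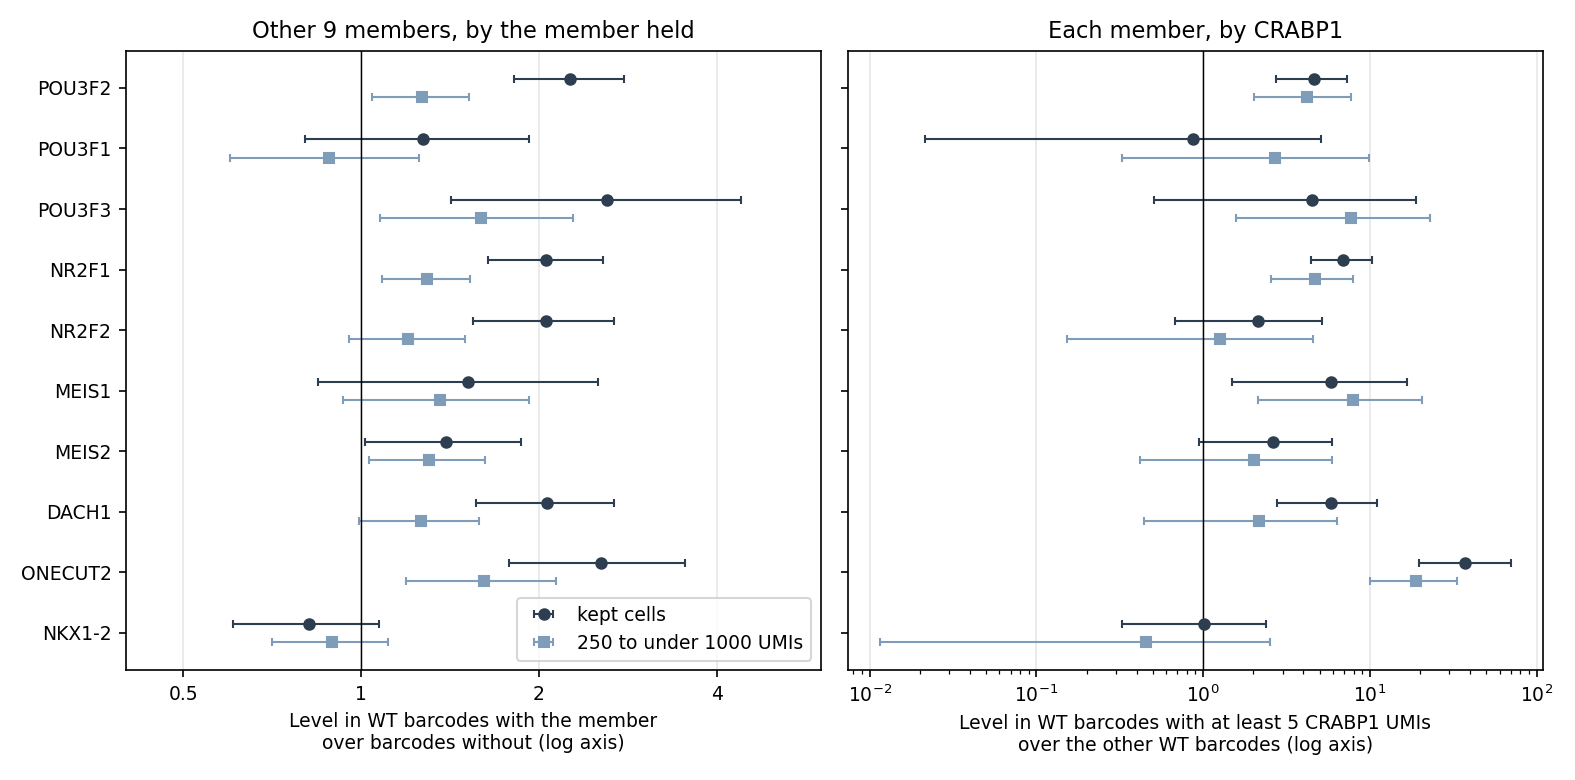
Ratios within the WT library on log axes, for kept cells (circles) and barcodes of 250 to under 1000 UMIs (squares), with exact 95% intervals. The left panel gives the summed level of the other 9 genes in barcodes with the named gene over barcodes without it, and the right panel the level of each gene in barcodes with at least 5 CRABP1 UMIs over the other barcodes. ONECUT2 lies farthest right in the right panel, at 37.2 in kept cells, and the intervals of NKX1-2 span 1 in both panels.

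The genes most alike in pattern were sought among 5872 genes with 20 CPM or more in WT kept cells, as those with the highest lower limit of the ratio between the 734 WT cells with a UMI of the set and the 2201 without. They were NEFM, a neurofilament (300 CPM with and 130 CPM without, ratio 2.31), PRTG, protogenin, a cell surface receptor of the early neural tube (524 CPM and 248 CPM, ratio 2.11), ILDR2 (ratio 2.79), EPHA7, an ephrin receptor (2.54), CPE, a prohormone carboxypeptidase (2.35), CRABP1 (1.87), ANXA1, annexin A1 (2.40), and IGFBP5, an IGF binding protein (2.11). The median ratio over all 5872 genes was 1.02. They were picked by those values, and shallow WT barcodes, which the choice did not use, gave lower ratios of 1.53, 1.28, 1.75, 1.47, 1.47, 1.37, 1.28 and 1.53 in the same order, all with intervals above 1. Of all 5872 genes, 369 had an interval above 1 in shallow barcodes and 542 in kept cells. All 8 genes were also at least 1.5-fold lower in KO than in WT kept cells, beside 13% of 10129 genes. ILDR2 and EPHA7 were lower by most, with log2 ratios of -3.08 and -3.03, and CRABP1 by least, at -0.92. They were picked through genes chosen for being lower in KO, so nothing is read from that count. POU5F1, the core pluripotency factor, was at 31.7 CPM in WT kept cells with a UMI of the set and 57.0 CPM in those without (ratio 0.557, 0.386 to 0.786). In shallow barcodes its ratio was 0.895 (0.718 to 1.105), an interval that holds no difference.

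What accompanied the 10 genes varied with the gene. NEFM in WT kept cells was 6.31-fold higher with ONECUT2 than without it and 4.04-fold higher with NR2F1, but 0.869-fold with NKX1-2 (0.652 to 1.14) and 0.996-fold with MEIS2 (0.667 to 1.43). With NKX1-2, EPHA7 was 0.257-fold (3 UMIs, 0.0524 to 0.769) and IGFBP5 0.330-fold (8 UMIs, 0.141 to 0.659). PRTG was 0.755-fold (0.605 to 0.933) and CRABP1 0.841-fold (0.712 to 0.987) with it. The intervals of ILDR2, CPE and ANXA1 with NKX1-2 held no difference. ANXA1 was 7.33-fold higher with NR2F2 (24 UMIs), 4.98-fold with MEIS2 (20 UMIs) and 4.64-fold with NR2F1 (27 UMIs). All WT kept cells with a UMI of the set held 59 ANXA1 UMIs, so some of these lie in the same cells. How many cells held them was not counted, and the intervals take UMIs as independent. ANXA1 had 0 UMIs in the cells with DACH1 or ONECUT2, where its upper limits were 0.893-fold and 1.96-fold. STMN2, a neuronal stathmin, was 9.67-fold higher with ONECUT2 and 0.268-fold with POU3F2 (3 UMIs, 0.0548 to 0.797). In shallow WT barcodes the ratio with ONECUT2 was 4.64 for STMN2 and 3.16 for NEFM, and that of ANXA1 with NR2F2 was 2.03. That of STMN2 with POU3F2 was 1.42 there (0.944 to 2.05), on the other side of 1 from kept cells, and so was that of ANXA1 with DACH1, at 1.62 (12 UMIs, 0.832 to 2.85). The ratio of ANXA1 with NR2F1 also crossed to the other side of 1, at 0.842 (13 UMIs, 0.446 to 1.45).

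Relatives of the 10 genes in the same families gave a mixed picture. Among TALE homeobox genes other than MEIS1 and MEIS2, 5 of 9 measured genes were at least 1.5-fold lower in KO kept cells and 0 were higher, beside 13% and 3.94% of all genes. Of these 5, PBX3, a MEIS partner, and IRX2 were 1.59-fold and 2.20-fold lower, and IRX1, MEIS3 and PKNOX2, which were named after their values were seen, were 9.97-fold, 2.93-fold and 2.30-fold lower. In shallow barcodes 4 of 8 measured TALE genes were lower, beside 10.1% of all genes. In the wider POU family 0 of 3 measured genes were lower, and POU5F1 was at 77.1 CPM in KO and 50.1 CPM in WT, 1.54-fold higher. POU2F2 was 1.68-fold higher in kept cells but at 11.8 CPM in KO and 11.6 CPM in WT in shallow barcodes. None of the 4 measured NR2 and retinoid receptor genes passed 1.5-fold in either direction, RXRA being 1.40-fold lower and NR2F6, a relative of the COUP factors, 1.21-fold lower. Of the DACH, EYA and SKI families and their homeobox partners 0 of 6 were lower and SKI, a DACH-related corepressor, was 1.77-fold higher in kept cells and 2.12-fold higher in shallow barcodes. CUX1 and SATB1, the CUT genes measured beside ONECUT2, were 1.06-fold and 1.11-fold lower.

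Genes that mark the states in which these factors are known to act were also lower in part. Of 16 measured neural progenitor genes 8 were at least 1.5-fold lower in KO and 0 higher in kept cells, beside the same 13% and 3.94% of all genes, with a median log2 ratio of -0.63 beside -0.14. GBX2, a hindbrain boundary homeobox gene, had 4 UMIs in KO and 100 in WT, 19.2-fold lower (7.26 to 71.8), and 20 UMIs in KO and 597 in WT shallow barcodes. EMX2, a cortical homeobox gene, was 5.11-fold lower, PAX6 2.27-fold lower and the neural cadherin CDH2 2.34-fold lower. OTX2, a forebrain homeobox gene named after its values were seen, was at 76.5 CPM in KO and 88.8 CPM in WT. In shallow barcodes 10 of 18 measured neural progenitor genes were lower and 1, HESX1, was higher (2.03-fold), beside 10.1% and 2.79% of all genes. Of 9 measured neuron genes 5 were lower, STMN2 by 4.92-fold and NEFM by 2.38-fold, while TUBB3 was at 169 CPM in KO and 178 CPM in WT. Of 20 caudal epiblast genes, the state of NKX1-2, 2 reached a mean of 5 CPM in kept cells. SP8 was 3.29-fold lower, and SP5, a WNT target named after its values were seen, had 0 UMIs in KO and 59 in WT, at least 15.1-fold lower against a floor of 3 UMIs over all KO kept cells. Its shallow barcodes held 5 UMIs in KO and 196 in WT. TBXT, the defining caudal gene, had 1 UMI in KO and 7 in WT kept cells. Of 14 pluripotency genes 0 were lower and 4 were higher, beside 13% and 3.94% of all genes, among them TDGF1 (1.76-fold) and DNMT3B (1.58-fold). Markers of other cell types were few. Of primitive streak genes 2 were measured and both were lower, EOMES by 3.5004-fold and MIXL1 by 2.61-fold, and of 3 neural crest genes SOX9 was lower, by 3.45-fold. The 1 mesoderm gene and the 1 amnion and trophoblast gene measured passed 1.5-fold in neither direction, of 3 fibroblast genes COL1A1 was 1.76-fold higher, and 0 endoderm genes and 0 further NKX genes were measured. Over all 74 measured listed genes outside the set, 24 were lower and 7 higher in kept cells, beside 13% and 3.94% of all genes. The lists are small and were chosen with earlier results of these data known, so nothing particular to them is read from these shares. The part of these cell states in the levels of the 10 genes was not tested.

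**Figure D4:**
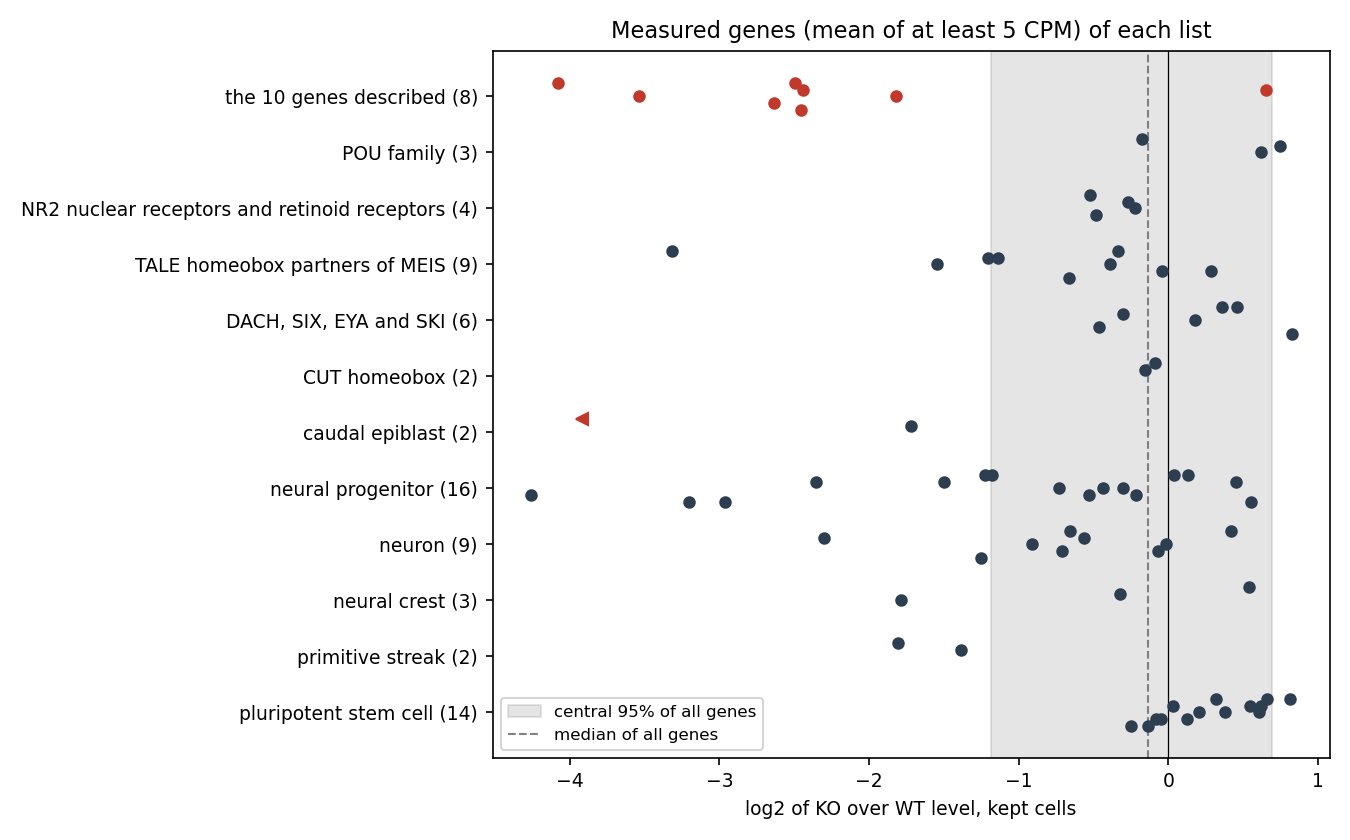
Log2 of the KO over WT level in kept cells of each measured gene (mean of at least 5 CPM), by list, with the number measured in brackets. The grey band spans the central 95% of all genes and the dashed line is their median, -0.14. The triangle is SP5, with 0 KO UMIs, placed at its bound of 3 UMIs. Of the 8 measured genes of the set 7 lie left of the band and POU3F1 lies to the right of 0.

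Noncoding neighbours of 2 members behaved differently from each other. PANTR1, a noncoding RNA on the opposite strand that starts 92 bases from the RefSeq gene POU3F3, had 1 UMI in KO and 28 in WT kept cells, 21.5-fold lower in KO (3.55 to 878), and 8 UMIs in KO and 209 in WT shallow barcodes, 23.2-fold lower (11.5 to 54.4), beside 14.3-fold for POU3F3. NR2F1-AS1, which runs antisense from the start of NR2F1 and overlaps it by 2368 bases, had 25 UMIs in KO and 58 in WT kept cells, 1.78-fold lower. In shallow barcodes it had 173 UMIs in KO and 222 in WT, a log2 ratio of -0.19 (-0.48 to 0.11), beside -2.46 (-2.69 to -2.25) for NR2F1. NR2F2-AS1, which overlaps NR2F2 by 1316 bases, had 1 UMI in KO and 0 in WT kept cells and 2 UMIs in KO and 19 in WT shallow barcodes. Whether counting used the strand of reads is not given in the sources used here, so reads of overlapping pairs cannot be told apart with certainty.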

How the data were processed

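Per the labels' protocols, polyadenylated RNA of dissociated, viability-stained cells was captured on barcoded beads in microwells and made into libraries by Tn5 tagmentation. The deposited values are raw UMI counts of each gene in each barcode, from 1 KO and 1 WT library. Per the submitters' processing notes, the tools were featureCounts 2.0.1 (Subread), STAR 2.7.10a and UMI-tools 1.1.2 and the build was hg38. Their settings, the gene annotation and the handling of strand, of reads that fit several genes and of empty barcodes are not given in these notes. The KO table held 15 entries more than its size line states, and they were used.

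Genes were matched by symbol. Depth was 54559376 UMIs over 841049 barcodes in KO and 60578040 UMIs over 842407 barcodes in WT. UMIs were summed over barcodes and scaled to CPM. Intervals are 95% intervals: exact Poisson for levels, exact conditional binomial for ratios and Clopper-Pearson for shares. They cover counting error only, and UMIs of 1 library are not replicates, so no test was made. Shares and co-occurrence were taken after thinning each barcode at random to 1000 or 250 UMIs. Doublets were not called or removed, and an alternative left out cells over 4 times the median UMIs. The share expected from free RNA is what the summed profile of barcodes with 10 to under 100 UMIs gives at that depth. A gene was measured at a mean of 5 CPM or more over the 2 libraries. A fold against 0 UMIs used a floor of 3 UMIs. No unmapped columns were left.

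The set and the lists of related genes were chosen with earlier results of these data known. Named genes are the 10 genes, ZNF263, up to 4 genes per list with the largest log2 ratio at a mean of 10 CPM or more in kept cells, and the 8 genes of highest likeness. Other genes are named beside them for the counts they belong to or as known markers, after their values were seen. Functions were tested on simulated data with known ratios. Gene positions are from GENCODE v29 on GRCh38, distances between neighbours and promoter sequence from RefSeq (GRCh38.p14), where all 10 genes matched. Python 3.11.15, NumPy 2.4.6, SciPy 1.17.1, pandas 2.3.3 and matplotlib 3.10.9 were used. The alternatives were other scalings, depth and mitochondrial limits, thinning draws and depths, and leaving out cells rich in CRABP1, deep cells or extra entries. Leaving out barcodes shared by both libraries and the expectation at the depth of each barcode were chosen after seeing the data.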

Additional observations from a re-analysis of the deposited data

How the results depend on the processing

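The 9 lower genes and the higher POU3F1 kept their direction under every alternative that gave a value, in both ranges. Within bins of mitochondrial share, which are not among these alternatives, POU3F1 in kept cells was lower in KO in 2 of 4 bins. The log2 ratios were -0.47 (8 UMIs in KO and 19 in WT, -1.87 to 0.79) and -0.62 (1 UMI in each library, -6.92 to 5.67). Both intervals hold no difference. Of single-gene values, POU3F1 ran from log2 0.37 to 1.44 in kept cells and POU3F2 from -3.54 to -2.70. A minimum of 2000 UMIs gave 8 lower genes in place of 9, and single-gene values could not be given there for POU3F3, with 2 UMIs in KO and 0 in WT, or MEIS1, with 1 in KO and 3 in WT. The log2 ratio of the 10-gene sum was -1.88 in shallow barcodes under scaling by the median count ratio, against -2.02. The difference in share, KO minus WT, follows depth by construction: in kept cells it was -12.99 percentage points at 1000 UMIs, -7.21 at 500 UMIs and -17.53 without thinning, and in shallow barcodes -4.44 at 250 UMIs, -8.72 at 500 UMIs and -7.06 without thinning. Co-occurrence in WT kept cells was 1.47 times its expectation, and 1.06 with no thinning and the expectation at the depth of each barcode, or 1.02 when CRABP1-rich barcodes were also left out. Over 3 thinning draws it was 1.29 to 1.47. In shallow WT barcodes it ran from 1.09 to 1.28 over all alternatives. Listed genes outside the set that were lower numbered 24 at a mean of 5 CPM, 9 of 42 at 20 CPM and 48 of 110 at 1 CPM, by construction of the minimum. No paired analysis was possible because each genotype has 1 library and the labels give no replicate numbers. Depth limits POU3F3, MEIS1 and ONECUT2 most, with 2 to 4 KO UMIs each in kept cells.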
